A study of Mus musculus with 12 samples.

Results

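Inner root sheath keratins and trichohyalin are the structural proteins of the sheath that surrounds a growing hair. The 9 genes examined here were the type I keratin genes Krt25, Krt26, Krt27 and Krt28, the type II keratin genes Krt71, Krt72, Krt73 and Krt74, and the trichohyalin gene Tchh. They were found by their mouse symbols and are 9 of the 55401 genes of an RNA sequencing table from mouse dermis. All 9 had a mean of at least 1 FPKM (fragments per kilobase, scaled to library size) over the 12 libraries and were tested. The samples came from 6 week old C57BL/6 mice, either wild type (WT) or Cthrc1-/-, taken on day 0 or day 7 of a study of skin wounds made in pairs of the same size, and each of the 4 groups had 3 biological replicates. Cthrc1 encodes a secreted protein with a short collagen repeat. The labels do not say how the gene was deleted, whether the deletion is limited to a cell type, or how the dermis was separated from epidermis and follicles. The 4 groups differed in genotype and day alone, as far as the labels go.

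The genes were chosen by their measured levels, in earlier results of these data, from 2 comparisons, Cthrc1-/- against WT on day 0 and day 7 against day 0 in WT. Values in those comparisons are therefore given as a description, and the number of the genes that passed in them follows from the choice and supports nothing. The comparison of genotypes on day 7, and that of days in Cthrc1-/-, did not choose the genes and were tested, although they share libraries with the comparisons that did.

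As background, the inner root sheath is a sleeve of cells that forms from the matrix at the base of the hair follicle, hardens before the hair shaft does and moulds it. Its keratins form filaments only as pairs of a type I and a type II chain. Trichohyalin fills the sheath cells as granules, is changed by peptidylarginine deiminases and is cross-linked to the filaments by transglutaminases. The sheath is made while the follicle is growing and is lost when growth ends.

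The 4 type I genes lie next to each other on the minus strand of mouse chromosome 11 (GRCm38, GENCODE M21 annotation), from 99315516 to 99374903, a span of 59.4 kb with no other annotated gene. Each has 8 exons. The 4 type II genes fill 68.4 kb of the minus strand of chromosome 15, from 101733949 to 101802346, in the order Krt71, Krt74, Krt72 and Krt73, with 9 exons each. Krt74 is annotated as a transcribed unitary pseudogene in the mouse, and the other 8 genes as protein-coding. Tchh lies alone on the plus strand of chromosome 3, from 93442330 to 93449077, in 2 exons, within the span of Gm37245, a lincRNA gene on the minus strand (93306468 to 93465359) whose 4 exons share 0 bases with those of Tchh. Whether the counting used strand is not given in the sources used here, so unspliced reads of Gm37245 may have been counted for Tchh.

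The start sites of 8 of the 9 genes had a RefSeq promoter window (GRCm38.p6, 250 bases before to 50 after the start), Krt74 being the exception. The 4 windows printed here are those that hold both TATAAA, the letters of a TATA box, and AGATAA, letters that GATA factors bind. GATA3 is a factor known for inner root sheath formation. Each window is written 5′ to 3′ on the gene's own strand, with every TATAAA, every AGATAA and every TGATAA in capitals.
Krt25, chr11:99322902-99323201, minus strand: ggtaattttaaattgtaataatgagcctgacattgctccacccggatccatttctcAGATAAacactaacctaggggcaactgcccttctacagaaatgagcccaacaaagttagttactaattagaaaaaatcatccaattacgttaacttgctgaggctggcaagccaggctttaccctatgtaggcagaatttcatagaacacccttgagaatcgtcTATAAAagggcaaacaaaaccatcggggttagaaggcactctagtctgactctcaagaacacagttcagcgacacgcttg
Krt27, chr11:99351069-99351368, minus strand: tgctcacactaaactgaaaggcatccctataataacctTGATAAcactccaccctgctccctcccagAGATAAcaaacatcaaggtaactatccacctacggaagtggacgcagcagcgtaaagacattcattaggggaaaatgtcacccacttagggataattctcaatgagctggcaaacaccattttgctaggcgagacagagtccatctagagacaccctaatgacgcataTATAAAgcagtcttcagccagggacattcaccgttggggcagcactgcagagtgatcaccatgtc
Krt71, chr15:101743048-101743347, minus strand: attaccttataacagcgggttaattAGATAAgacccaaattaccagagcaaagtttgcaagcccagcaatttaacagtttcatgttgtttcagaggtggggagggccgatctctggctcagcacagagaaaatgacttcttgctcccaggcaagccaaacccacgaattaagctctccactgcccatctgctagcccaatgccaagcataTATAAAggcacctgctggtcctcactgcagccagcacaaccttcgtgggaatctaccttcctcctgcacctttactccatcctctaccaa
Krt73, chr15:101802311-101802610, minus strand: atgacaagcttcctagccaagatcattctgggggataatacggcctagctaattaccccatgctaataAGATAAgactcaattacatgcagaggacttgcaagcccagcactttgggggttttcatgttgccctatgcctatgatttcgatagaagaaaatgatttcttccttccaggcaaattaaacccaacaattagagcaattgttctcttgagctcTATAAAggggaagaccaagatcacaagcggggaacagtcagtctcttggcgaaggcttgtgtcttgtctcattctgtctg

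TATAAA stood in 7 of the 8 windows, read on both strands, against 13.6% of 32851 windows of the same length in the table. It began at base -30 from the start site in Krt25, Krt26, Krt28 and Krt73, at -40 in Krt71 and at -15 in Krt27, each on the gene's strand, with a further match at -158 in Krt26. In Krt72 it lay on the other strand at -203, and the Tchh window held none. AGATAA stood in 5 of the 8 windows (Krt25, Krt27, Krt71, Krt73 and Tchh), against 11.2% of all windows, and TGATAA in Krt27 alone, against 9.05%. TAATT, the core read by many homeodomain factors such as those of the Dlx and Msx families, stood in 7 of 8 windows, all but that of Tchh, against 27% of all. CCAAT was in 4 of 8 windows against 37.4%, CTTTGA, a word of Lef and Tcf factors, in 2 of 8 against 16%, and GCCNNNGGC, a word of AP-2 factors, in 1 of 8 against 16.6%. The windows of Krt25 and Krt71, genes of different types on different chromosomes, both held TATAAA together with AGATAA, and both also held TAATT besides CCAAT. These are matches of letters in a short window and were not examined as binding sites.

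Coding sequences within a type were alike but not identical. Identity in the GENCODE M21 transcripts was 66.3% to 80.2% among the type I genes, highest between Krt25 and Krt27, which share an unbroken run of 105 bases. It was 71.4% to 78.8% among Krt71, Krt72 and Krt73, highest between Krt71 and Krt73. Krt74 shares a run of 88 bases with Krt71, and its FPKM was 0.244% to 0.690% of that of Krt71 in the 9 libraries outside WT day 0. How reads in such runs were divided is uncertain, above all for the weakly expressed Krt74. The Tchh coding sequence, at 1599 codons, is the longest of the set, against 446 to 539 for the 7 coding keratins.

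Some facts of the libraries come before the values. Total counts were 48329668 to 76938132 per library, and low counts piled up at 4. The limit that a count of 0 allows was therefore set at 12 counts, 3 fragments of 4 counts each, which came to 0.156 to 0.248 CPM (counts scaled to library size). Cthrc1 itself had at most 15 counts in any Cthrc1-/- library and at least 1813 in any WT library. The 3 WT day 0 libraries were alike in the 9 genes, while the libraries of the other groups were not. Cthrc1-/- day 0 replicate 1 and Cthrc1-/- day 7 replicate 2 were far below their own groups, with summed FPKM of 232 and 512 over the 9 genes. The other 7 libraries outside WT day 0 had between 1683 and 11695. The defining genes of dermal fibroblasts (Col1a1, Col3a1 and Col1a2 among 9) were present throughout, with summed FPKM of 385.78 to 6634.5. So were keratinocyte genes of the outer root sheath and basal layer (Krt14, Krt5 and Krt17 among 11), with 3106.6 to 11335, and interfollicular epidermis genes (Krt10, Krt1 and Lor among 6), with 177.82 to 3600. The samples labelled dermis thus held epithelial RNA in every library. In such bulk samples, fewer cells of a type and less RNA per cell cannot be told apart.

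The 9 genes together took up almost nothing of WT dermis on day 0 and up to 2.507% of all FPKM elsewhere. Their summed FPKM in WT day 0 replicates 1 to 3 was 2.77, 5.60 and 5.08, at most 0.001396% of the library. In Cthrc1-/- day 0 it was 232, 4864 and 11695, in WT day 7 it was 1683, 4086 and 3786, and in Cthrc1-/- day 7 it was 3776, 512 and 5374. The WT day 0 libraries lay below all 9 others, and the other 3 groups overlapped each other.

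Among the type I keratins, Krt25 was the most abundant. Its FPKM was 0, 0.766 and 0.672 in WT day 0, 60.8, 1315 and 3333 in Cthrc1-/- day 0, 496, 1063 and 1069 in WT day 7, and 992, 136 and 1509 in Cthrc1-/- day 7. The lowest library outside WT day 0 was 79.3 times the highest WT day 0 library. Krt27 followed, with 0.165, 0.509 and 0.669 FPKM in WT day 0, 27.8, 724 and 1610 in Cthrc1-/- day 0, 243, 594 and 546 in WT day 7, and 572, 68.3 and 846 in Cthrc1-/- day 7. Krt25 and Krt27 had their lowest and highest values outside WT day 0 in Cthrc1-/- day 0 replicates 1 and 3. So did every other gene of the 9 but Krt26. Krt28 lay between 0.373 and 0.686 FPKM in WT day 0 and between 22.7 and 663 elsewhere. Krt26 was the weakest type I gene in the 9 libraries outside WT day 0. It had 0, 0.0601 and 0.0570 FPKM in WT day 0, 0.764, 23.3 and 28.8 in Cthrc1-/- day 0, 3.32, 35.2 and 18.7 in WT day 7, and 21.9, 1.67 and 20.1 in Cthrc1-/- day 7. Krt26 was the single gene of the 9 whose highest library was not Cthrc1-/- day 0 replicate 3 but WT day 7 replicate 2.

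Among the type II keratins, Krt71 was the most abundant and was the highest of all 9 genes in each of the 9 libraries outside WT day 0. Mutations of Krt71 are known to give wavy coats in rodents. Its FPKM was 0.307, 1.06 and 0.821 in WT day 0, 66.1, 1526 and 3950 in Cthrc1-/- day 0, 595, 1328 and 1234 in WT day 7, and 1293, 169 and 1794 in Cthrc1-/- day 7. Krt73 came next, with 0, 0.341 and 0.252 FPKM in WT day 0, 27.9, 345 and 754 in Cthrc1-/- day 0, 139.5, 320.0 and 328 in WT day 7, and 295, 51.7 and 397 in Cthrc1-/- day 7. For Krt73 the gap to WT day 0 was the widest of the 9 genes, at 82 times between the nearest libraries. Krt72 had 0.154 FPKM in WT day 0 replicate 2 and 0 counts in the other two. Elsewhere it had 3.69, 128 and 224 FPKM in Cthrc1-/- day 0, 15.2, 131 and 65.8 in WT day 7, and 73.4, 5.69 and 125 in Cthrc1-/- day 7. Krt74, the annotated pseudogene, was the weakest of the 9, at 0 counts in WT day 0 replicates 1 and 2, 0.169 FPKM in replicate 3 and 0.211 to 18.8 FPKM elsewhere. For Krt74 the gap was therefore narrow, 26 counts in Cthrc1-/- day 0 replicate 1 against 16 counts in WT day 0 replicate 3.

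Tchh encodes the granule protein that the sheath keratins are embedded in. It had 1.91, 2.03 and 2.06 FPKM in WT day 0, 22.1, 541 and 1113 in Cthrc1-/- day 0, 103, 366 and 284 in WT day 7, and 331, 34.9 and 382 in Cthrc1-/- day 7. In WT day 0 it was the highest of the 9 genes in each of the 3 libraries, with 649 to 1009 counts and a mean of 2.00 ± 0.0814 FPKM (SD, n = 3), while no keratin of the set was above 1.06 FPKM there. In the other 9 libraries it ranked 4th to 6th. Its gap between WT day 0 and the nearest other library was 10.7 times, narrower than that of every keratin but Krt74.

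**Figure D1:**
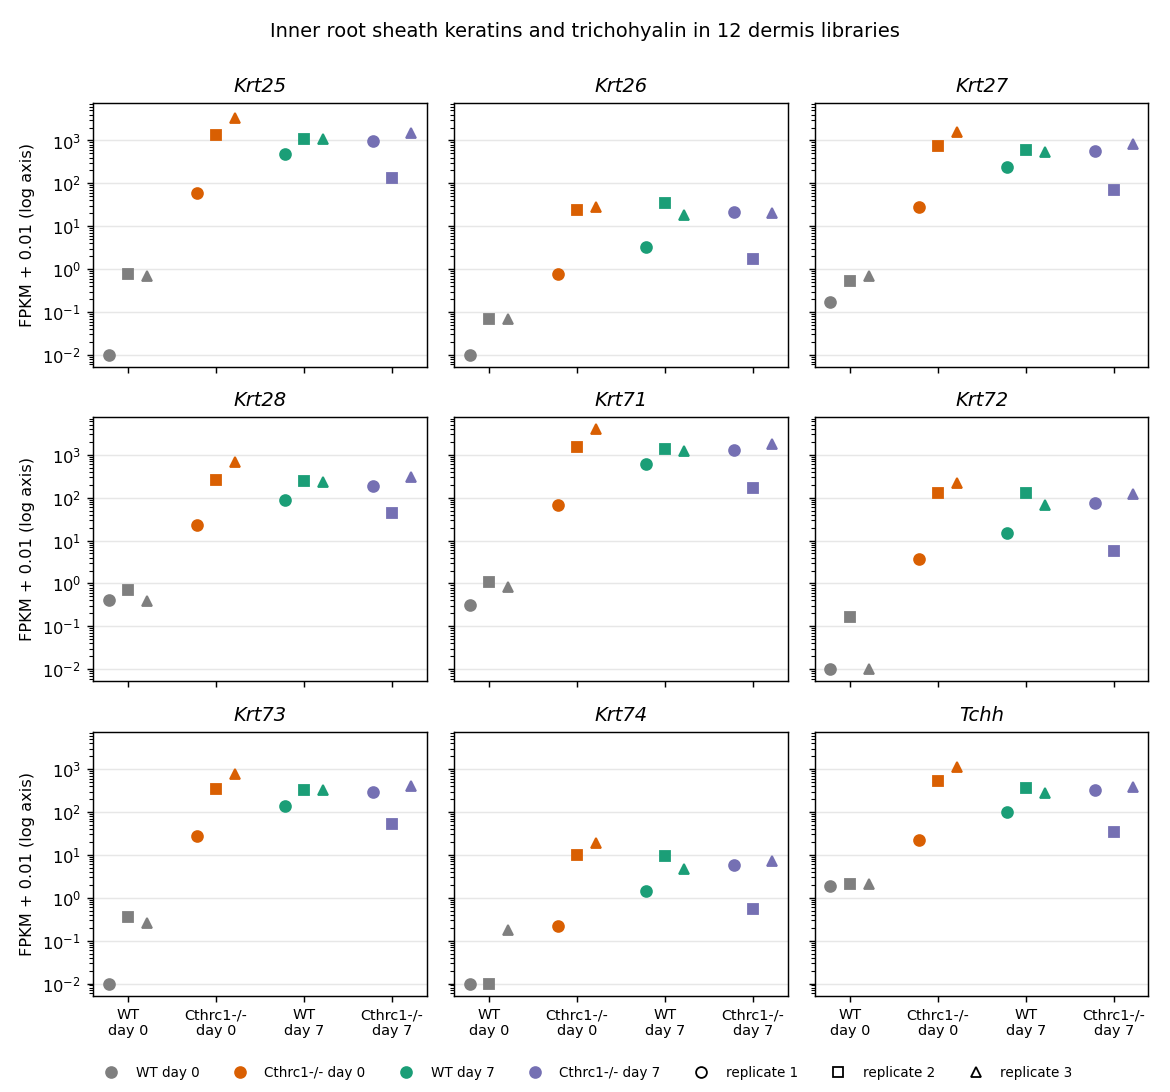
FPKM plus 0.01 on a log axis for each of the 9 genes in the 12 libraries, by group (colour) and replicate (marker shape). Every gene has its 3 WT day 0 libraries lowest, while the other 3 groups overlap, with Cthrc1-/- day 0 replicate 1 and Cthrc1-/- day 7 replicate 2 low within their groups.

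All 9 genes kept their 3 WT day 0 libraries below the other 9, which 11.8% of the 14313 genes tested also did. Against Cthrc1-/- day 0 alone this held for 21.5% of all genes, and against WT day 7 alone for 29.8%. This is what the genes were noticed for, so nothing is read from it. By group means, Cthrc1-/- day 0 was first for 8 of the 9 genes and WT day 7 for Krt26. Krt71 averaged 1847 ± 1962 FPKM in Cthrc1-/- day 0, 1085 ± 832 in Cthrc1-/- day 7 and 1053 ± 399 in WT day 7 (SD, n = 3 each), against 0.729 ± 0.384 in WT day 0. No neighbours among the upper 3 groups differed beyond their spread for any gene, since their libraries overlapped. In Cthrc1-/- day 0 the spread was as large as the level, at 1570 ± 1651 FPKM for Krt25 and 558.7 ± 545.5 FPKM for Tchh (SD, n = 3 each).

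On day 0 the fitted log2 changes from WT to Cthrc1-/- were 7.28 (Krt74) to 11.48 (Krt25), with a median of 10.6 over the 9 genes against -0.05 over all genes tested. From day 0 to day 7 in WT the log2 changes were 6.29 (Krt74) to 10.59 (Krt25), with a median of 9.78 against 0.00 over all genes. Both ends of these ranges turned on 1 library, the upper through Krt72 and the lower through Krt74. Both genes had 0 counts in 2 of the 3 WT day 0 libraries. Krt25 was the highest with all libraries. With 1 left out it had 10.4 to 12 on day 0 and 10 to 11.1 between days in WT. With 1 library left out, the day 0 log2 change was 9.96 to 17 for Krt72 and 6.46 to 13.1 for Krt74, the highest without the WT day 0 library that had counts, replicate 2 and replicate 3 in turn. Between days in WT it was 9.1 to 16.1 for Krt72 and 5.56 to 12.1 for Krt74. With edgeR's quasi-likelihood test 8 of the 9 genes, all but Krt74, were called at an adjusted p under 0.05 in each of the comparisons. All genes were called at 5.78% on day 0 (3.51% higher) and at 13.1% between days in WT (6.04% higher). These comparisons chose the genes, so the counts of the 9 are no test of them and nothing is read from them. The calls also changed when 1 library was left out, and why was not tested. Without WT day 0 replicate 1, 2 or 3 the median day 0 log2 change of the 9 was 10.11, 10.71 or 10.86. Without any 1 of the 3 WT day 0 libraries the day 0 calls were 0 of the 9 and 18 to 48 of all genes, against 827 with all libraries, and those between days in WT were 5 of the 9 and 527 to 688 of all genes, against 1880. Without Cthrc1-/- day 0 replicate 2 the day 0 calls were 5 of the 9 and 154 of all genes.

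The summed levels of the 2 keratin types moved in step. Type I over type II, as summed FPKM, was 1.144, 1.152 and 1.139 in Cthrc1-/- day 0, 1.103, 1.080 and 1.145 in WT day 7, and 1.066, 1.104 and 1.150 in Cthrc1-/- day 7. The ratio thus stayed within 1.066 to 1.152 (median 1.139, SD 0.0327, 9 libraries) while the type I sum ranged 50.3 times, from 112.1 to 5636 FPKM, and the type II sum 50.5 times, from 97.94 to 4947 FPKM. The groups overlapped. In WT day 0 both sums were under 5 FPKM and the ratio was not read. On deposited counts, which are not per length, the ratio was 0.898 to 0.972 with a median of 0.957, so type I is the larger sum per length and the smaller by counts. The steady ratio is a description of values that also chose the genes, and all sums of a library share its depth.

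**Figure D2:**
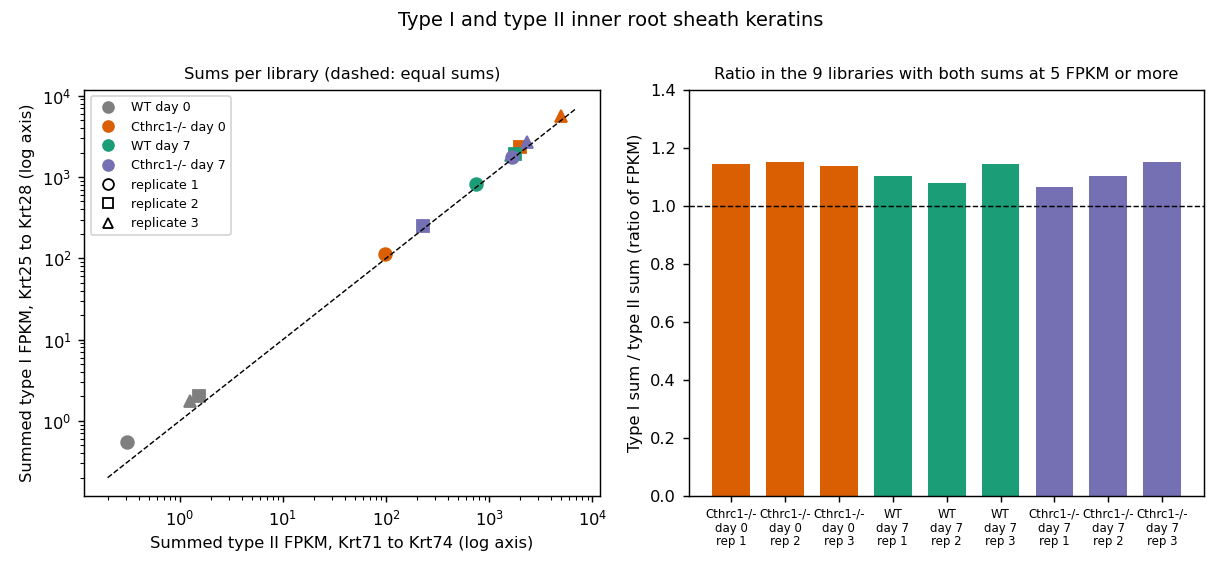
Left, summed FPKM of the 4 type I keratins against that of the 4 type II keratins in 12 libraries on log axes, with equal sums dashed. Right, bars of the type I to type II ratio in the 9 libraries where both sums reach 5 FPKM, which all lie between 1.066 and 1.152.

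Within each type the make-up was less even. Krt25 held 54.2% to 59.8% of the type I sum and Krt27 24.8% to 32.2% in the 9 libraries. Krt71 held 67.5% to 79.8% of the type II sum. Krt28 and Krt73 took their largest shares in the 2 libraries with the lowest totals. Krt28 made up 20.3% of the type I sum in Cthrc1-/- day 0 replicate 1 and 17.7% in Cthrc1-/- day 7 replicate 2, with a median of 11.8% over the 9 libraries. Krt73 made up 28.5% and 22.8% of the type II sum in the same libraries, with a median of 17.9%. These genes, 1 of each type, thus had their highest shares in the same libraries.

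The 3 weakest keratins shifted together as well. In WT day 7 replicate 1, Krt26 made up 0.401% of type I, Krt72 2.03% of type II and Krt74 0.194% of type II, the lowest share of each gene. In WT day 7 replicate 2 they made up 1.82%, 7.34% and 0.512%, the highest share of each. These shares differed 4.55 times for Krt26, 3.62 times for Krt72 and 2.65 times for Krt74 between replicates of 1 group, whereas the share of Krt25 varied 1.1 times over all 9 libraries.

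Tchh, set against Krt71 in the same library, was 33.45%, 35.47% and 28.17% in Cthrc1-/- day 0. It was 17.23%, 27.55% and 23.0% in WT day 7, and 25.63%, 20.69% and 21.3% in Cthrc1-/- day 7. The 3 Cthrc1-/- day 0 libraries were above all 6 day 7 libraries, with a narrow gap between 28.17% and 27.55%. This was noticed after the values had been seen and was not tested.

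**Figure D3:**
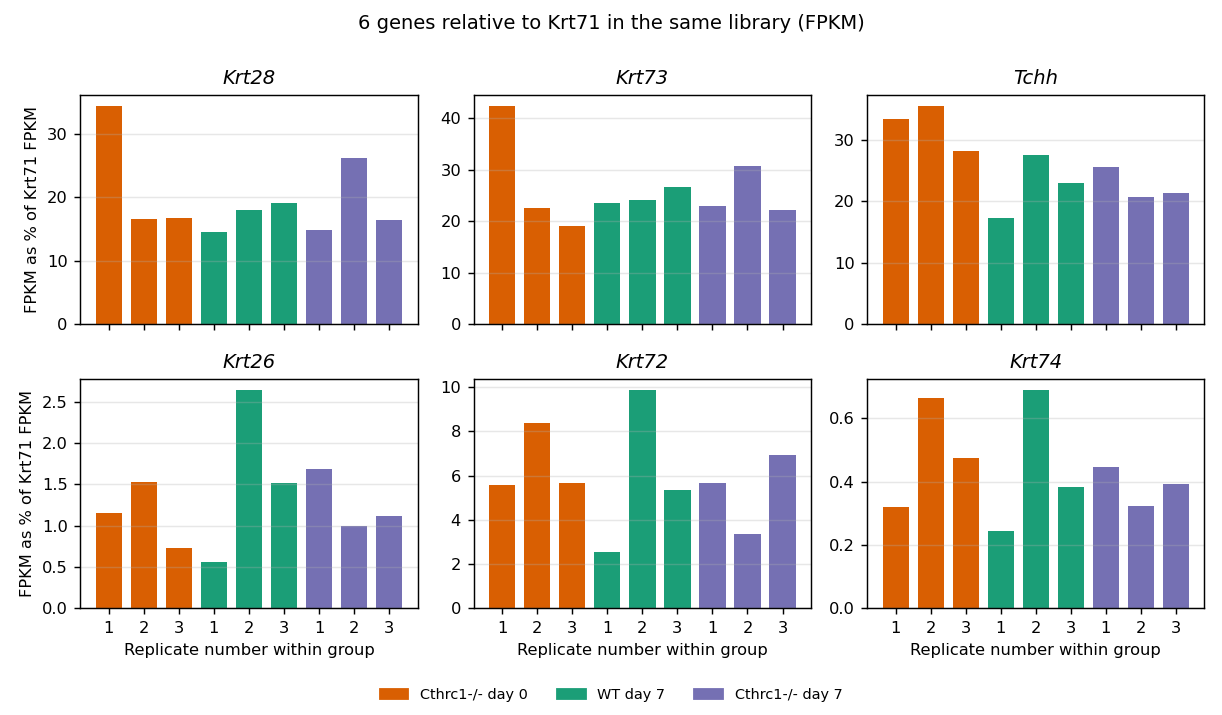
FPKM of 6 genes as a percentage of Krt71 FPKM in the same library, in the 9 libraries outside WT day 0 (bars, coloured by group, replicates 1 to 3 in each). Krt28 and Krt73 stand high in Cthrc1-/- day 0 replicate 1 and Cthrc1-/- day 7 replicate 2, and Krt26, Krt72 and Krt74 are lowest in WT day 7 replicate 1 and highest in WT day 7 replicate 2.

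On day 7 the means of Cthrc1-/- and WT dermis lay close together beside the spread of their libraries. Krt71 was at 1085 ± 832 FPKM in Cthrc1-/- and 1053 ± 399 in WT, and Tchh at 249.4 ± 187.5 and 250.8 ± 134.8 FPKM (SD, n = 3 each). The groups overlapped for all 9 genes, whereas 9.13% of all genes had groups that did not. The log2 changes lay between -0.43 (Krt26, standard error 1.22) and 0.05 (Krt27, standard error 1.10), with a median of -0.10 against -0.01 over all genes. None of the 9 passed (edgeR adjusted p 0.998 to 1, none with an unadjusted p under 0.05), beside 0.0210% of all genes, and DESeq2 and limma called 0 as well. The 95% intervals reached from -3.34 at the lowest bound to 2.87 at the highest, so a difference of several-fold in either direction lay within the error. For every gene the sign changed when 1 or more libraries were left out. For Krt71, for instance, the log2 change was 0.49 without Cthrc1-/- day 7 replicate 2 and -0.57 without Cthrc1-/- day 7 replicate 3.

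Within Cthrc1-/-, the 9 genes were already present on day 0 and did not pass for a change by day 7. Krt25 averaged 1570 ± 1651 FPKM on day 0 and 879 ± 693 on day 7, and Krt27 787.2 ± 793.1 and 495.2 ± 394.2 FPKM (SD, n = 3 each). The libraries of the 2 days overlapped for all 9 genes, while 26.5% of all genes had days that did not overlap. The log2 changes were -1.27 (Tchh, standard error 1.07) to -0.40 (Krt26, standard error 1.22), with a median of -0.92 against -0.01 over all genes. None passed with edgeR (adjusted p 0.574 to 0.899, none with an unadjusted p under 0.05), beside 1.46% of all genes, and DESeq2 and limma called 0. The intervals spanned -4.37 to 2.30. Without Cthrc1-/- day 0 replicate 3, the library with the highest levels, the log2 change of Krt71 was 0.25 and that of Krt25 0.15.

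**Figure D4:**
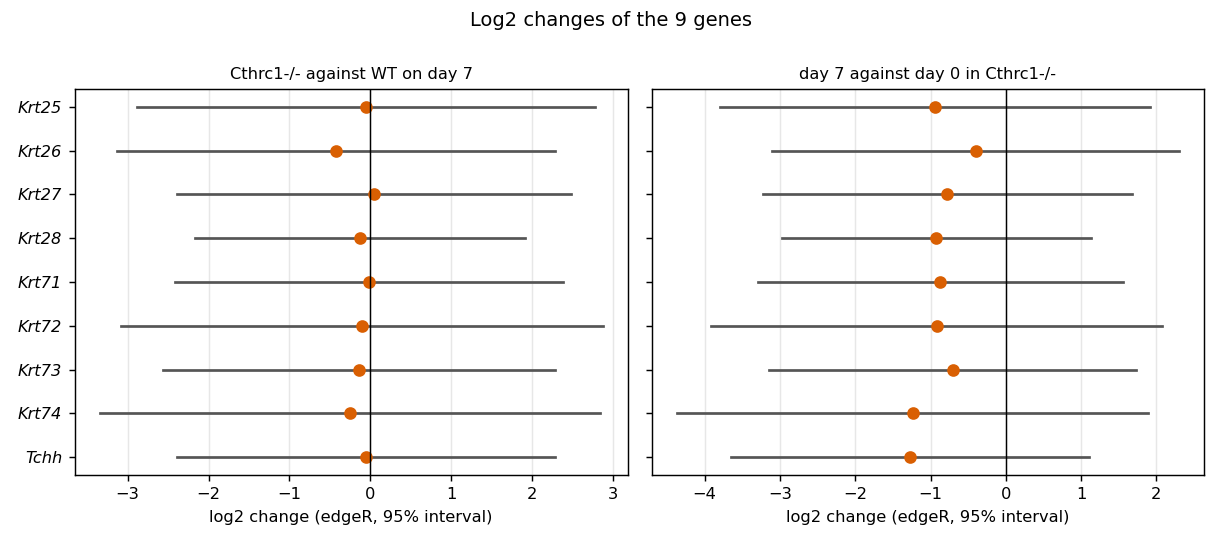
Log2 changes (points) with 95% intervals (lines) from edgeR for the 9 genes, for Cthrc1-/- against WT on day 7 (left) and day 7 against day 0 in Cthrc1-/- (right). Every interval includes 0.

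The change from day 0 to day 7 therefore stood far apart in the 2 genotypes by its size, 6.29 to 10.59 in WT and -1.27 to -0.40 in Cthrc1-/- on the log2 scale. The interaction of genotype and day was -11.53 (Krt25) to -7.53 (Krt74), with a median of -10.6 against 0.02 over all genes. With edgeR 0 of 9 passed (adjusted p 0.133 to 0.221) beside 0.0140% of all genes, and 9 of 9 had an unadjusted p under 0.05, as did 2164 of the 14313 genes. DESeq2 called 9 and limma 0. Without Cthrc1-/- day 0 replicate 1, edgeR called 8. Because the term contains both comparisons that singled out the genes, it is no independent test of them.

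Genes that work with these proteins were taken by role, 20 in all, with earlier results of these data known. They are the companion layer keratin Krt75, the trichohyalin relatives Tchhl1 and Rptn, the deiminases Padi1 and Padi3, the transglutaminases Tgm1, Tgm3 and Tgm5, the protease inhibitor Cst6 and the protease Ctsl. The other 10 are the regulators Gata3, Cux1, Dlx3, Msx2, Foxn1, Hoxc13, Lef1, Ovol1 and Trps1 and the receptor Bmpr1a. On day 0, 7 of the 20 were higher in Cthrc1-/- and 0 lower, beside 3.51% of all genes higher and 2.26% lower. Their median log2 change was 1.85 against -0.05 over all genes. From day 0 to day 7 in WT, 8 rose and 2 fell, with a median of 1.55, beside 6.04% of all genes that rose and 7.10% that fell. Both comparisons singled out hair keratins in earlier results of these data, so these counts are a description and no test. On day 7 between genotypes and between days in Cthrc1-/-, 0 of 20 passed with edgeR, with 1 unadjusted p under 0.05 in each. DESeq2 and limma called 0 on day 7 and 1 each between days in Cthrc1-/-. For the interaction 0 passed with edgeR, 11 had an unadjusted p under 0.05, DESeq2 called 8 and limma 0. The day 0 count was 0 when only the day 0 libraries were fitted (15 with an unadjusted p under 0.05), 13 with DESeq2 and 1 with limma. It was 0 without any 1 WT day 0 library, 13 without Cthrc1-/- day 0 replicate 1 and 1 without replicate 2 or 3 of that group, and 2 to 9 when a day 7 library was left out. The count between days in WT was 1 or 2 without a WT day 0 library and 4 to 10 without any other library.

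The 3 partner genes with the highest mean over the 12 libraries were Cst6, Krt75 and Dlx3. Their p values on day 0 and between days in WT are a description, since the list was made with earlier results known. Dlx3, a homeodomain regulator of the follicle, had 3.41 to 4.12 FPKM in WT day 0 and 11.4 to 211 in the other 9 libraries. Dlx3 rose on day 0 with an edgeR adjusted p of 0.0329, by a log2 change of 4.53 ± 0.934 (standard error), and between days in WT with one of 0.0202, by 4.09 ± 0.914. Cst6, an inhibitor of cysteine proteases, had 98.2 to 121 FPKM in WT day 0 and 16.9 to 57.9 in WT day 7. In Cthrc1-/- it had 293 to 521 FPKM on day 0 and 62.3 to 140.4 on day 7. It fell between days in WT, with a log2 change of -1.58 (edgeR adjusted p 0.0411). Its change of -2.05 between days in Cthrc1-/- had an edgeR adjusted p of 0.0535. The fall of Cst6 in WT passed in 5 of 12 fits with 1 library left out (edgeR adjusted p 0.0335 to 0.106) and in 3 of 7 other settings. Its larger fall in Cthrc1-/- passed in 2 of 12 such fits and in 4 of 7 other settings, so the genotypes are not set apart by these calls. The rise of Dlx3 passed in 5 of 12 on day 0 (0.00544 to 0.119) and in 9 of 12 between days in WT (0.00579 to 0.0792). Krt75, the keratin of the companion layer that lies against the inner root sheath, had 69.8 to 74.1 FPKM in WT day 0 and 24.0 to 131 elsewhere, and passed in none of the 5 contrasts. Its layer's keratin was thus present in the WT day 0 libraries where the 9 genes were near 0.

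The enzymes that act on trichohyalin were named for that role after their values were seen, so their p values are a description and no test. Padi3 had 0, 0.0383 and 0.0607 FPKM in WT day 0, 2.48, 59.7 and 122 in Cthrc1-/- day 0, 15.9, 49.1 and 38.1 in WT day 7, and 38.5, 4.29 and 57.6 in Cthrc1-/- day 7. These libraries kept the order of the 9 genes' sums at both ends, with Cthrc1-/- day 0 replicate 1 lowest and replicate 3 highest outside WT day 0. Padi1 had 0 counts in all 3 WT day 0 libraries and 0.413 to 19.6 FPKM elsewhere. Tchhl1, a relative of trichohyalin, also had 0 counts in WT day 0, with 0.251 to 32.6 FPKM elsewhere. Tgm1 was at 7.48 to 8.52 FPKM in WT day 0 and at 14.6 to 40.3 in Cthrc1-/- day 0, and rose there with an edgeR adjusted p of 0.0301, by a log2 change of 1.66 ± 0.323 (standard error). The rise of Tgm1 passed in 7 of 12 fits with 1 library left out (edgeR adjusted p 0.00508 to 0.108). Tgm3, a main transglutaminase of the follicle, had a log2 change of 2.22 on day 0 that did not pass (standard error 0.779, edgeR adjusted p 0.103). Tgm5 had another pattern. It had 38.0, 34.2 and 29.3 FPKM in WT day 0, 35.4, 17.5 and 6.77 in Cthrc1-/- day 0, 2.28, 7.01 and 6.56 in WT day 7, and 10.7, 15.2 and 5.08 in Cthrc1-/- day 7. Its log2 change of -0.83 on day 0 did not pass (edgeR adjusted p 0.38), and it fell by 2.90 on the log2 scale between days in WT (edgeR adjusted p 0.0195). That fall passed in 8 of 12 fits with 1 library left out (edgeR adjusted p 0.00598 to 0.0566). Gata3 had 26.7 to 31.4 FPKM in WT day 0 and 11.2 to 56.8 elsewhere and passed in no contrast.

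Some other lists of markers also had their WT day 0 libraries lowest. Of 13 hair shaft keratins, 12 were found by symbol, with summed FPKM of 6.851 to 10.212 in WT day 0, 38.9, 1233 and 2922 in Cthrc1-/- day 0, 89.9, 474.3 and 300.6 in WT day 7, and 283, 29.4 and 766 in Cthrc1-/- day 7. Krt33b and Krt82 were at 0 counts in all WT day 0 libraries. On day 0, 11 of 12 passed as higher, beside 3.51% of all genes, and between days in WT 7 of 12, beside 6.04%. Both comparisons singled out hair keratins in earlier results of these data, so these counts are no test and nothing is read from them. The median log2 changes of the 12 were 9.78 and 7.27. With Krt33b and Krt82 set to their bounds, at the limit of 12 counts per WT day 0 library, the medians were 9.55 and 6.97. The hair shaft sum was 16.8%, 25.3% and 25% of the summed FPKM of the 9 genes in Cthrc1-/- day 0, 5.34%, 11.6% and 7.94% in WT day 7, and 7.49%, 5.74% and 14.3% in Cthrc1-/- day 7. The 3 Cthrc1-/- day 0 libraries were above the 6 day 7 libraries, as with Tchh against Krt71. This too was noticed after the values had been seen and was not tested.

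Melanocyte genes (Pmel, Dct and Mlana among 5) summed to 11.583 to 13.021 FPKM in WT day 0 and 60.243 to 158.57 in WT day 7. In Cthrc1-/- they summed to 31.139 to 143.55 FPKM on day 0 and 54.31 to 184.96 on day 7, and 2 of 5 passed as higher on day 0 and 4 of 5 between days in WT. Cycling cell genes (Mki67, Top2a and Cdk1 among 5) summed to 16.405 to 24.896 FPKM in WT day 0 and 35.205 to 71.933 elsewhere, and 3 of 5 and 5 of 5 passed as higher. Across the libraries outside WT day 0 neither list kept the order of the 9 genes. Within each group, however, the melanocyte sum did. For replicates 1 to 3 it was 31.139, 37.408 and 143.55 FPKM in Cthrc1-/- day 0 and 60.243, 158.57 and 145.5 in WT day 7. In Cthrc1-/- day 7 it was 94.505, 54.31 and 184.96. The cycling cell sum did not, at 39.762, 35.205 and 71.258 FPKM in Cthrc1-/- day 0. In Cthrc1-/- day 0 replicate 2, where the 9 genes summed to 4864, melanocyte genes had 37.408 FPKM and cycling cell genes 35.205. In Cthrc1-/- day 7 replicate 2, where the 9 genes summed to 512, they had 54.31 and 52.455. Both sums were lowest in the WT day 0 libraries, like the 9 genes and 11.8% of all genes tested. The dermal fibroblast sum went the other way on day 0, at 5006.1 to 6634.5 FPKM in WT and 2557.9, 1419.2 and 385.78 in Cthrc1-/- replicates 1 to 3, where the 9 genes summed to 232, 4864 and 11695. Of its 9 genes 1 passed as lower on day 0, Col1a2, and 0 between days in WT. On day 0, however, 0 of the 9 had a positive log2 change, with a median of -1.53. There 7 had an unadjusted edgeR p under 0.05. Of the dermal papilla list (Crabp1, Wif1 and Sox18 among 7), 1 and 3 genes passed as higher. In the outer root sheath and bulge list 2 passed as higher on day 0, and 2 rose and 3 fell between days in WT. In the sebaceous gland list (Scd1, Mgst1 and Elovl3 among 5) 4 fell between days in WT. Beside the counts of these lists, 3.51% of all genes were higher and 2.26% lower on day 0. Between days in WT 6.04% rose and 7.10% fell. No gene of the lists for interfollicular epidermis, skeletal muscle (Acta1, Tnnt3 and Mylpf among 5), macrophages (Lyz2, Cd68 and Csf1r among 5) or endothelium (Pecam1, Cdh5 and Kdr) passed in either comparison with edgeR, and 4 of the 18 tested had an unadjusted p under 0.05 in each. DESeq2 called 2 of the 18 on day 0 and 3 between days in WT, and limma 0 in both. The sums of these lists were nevertheless lower in all 3 Cthrc1-/- day 0 libraries than in any WT day 0 library, like the fibroblast sum. For interfollicular epidermis it was 408.96 to 1470.7 FPKM in Cthrc1-/- against 1894.1 to 2236.6 in WT. Krt10 and Krt1 made up most of that sum, and other genes of the list went the other way. Of its 5 genes tested, 3 had a positive log2 change, with a median of 0.57. Flg, for instance, had 4.46 to 7.89 FPKM in Cthrc1-/- day 0 against 0.383 to 1.41 in WT day 0. For skeletal muscle the sum was 56.294 to 219.8 FPKM against 248.55 to 573.99. For macrophages it was 69.591 to 181.26 FPKM against 241.73 to 258.52, and for endothelium 11.333 to 31.348 against 38.618 to 39.312. The part of any of these cell types in the levels of the 9 genes was not tested.

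**Figure D5:**
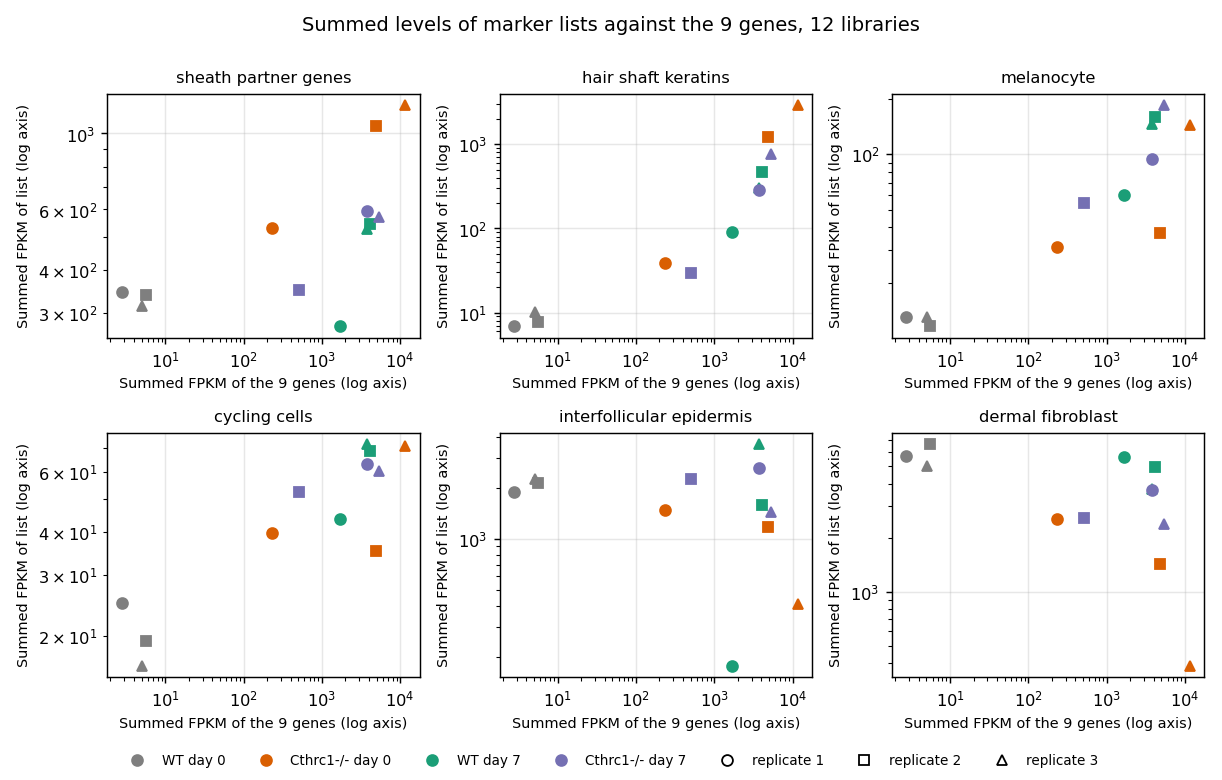
Summed FPKM of 6 gene lists against the summed FPKM of the 9 genes in 12 libraries, both on log axes, coloured by group with replicates as marker shapes. The hair shaft, melanocyte and cycling cell sums are lowest in the 3 WT day 0 libraries, and the dermal fibroblast sum is lowest in Cthrc1-/- day 0 replicate 3, where the 9 genes are highest.

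Genes outside the set with the most similar pattern were sought over all 12 libraries. Likeness was the root mean square difference between a gene's log2(FPKM + 1), centred on its mean, and the median of the centred profiles of the 9 genes, so a smaller value means a closer shape and size. Over all genes the median was 3.2. The nearest were Gm49425 at 0.327, the hair shaft keratin Krt35 at 0.362 and Prr9 at 0.384. Gm49425 is a protein-coding gene model on chromosome 15 (101515920 to 101517261, minus strand). Then came S100a3, a calcium-binding protein of hair, at 0.666, Padi3 at 0.869, the connexin gene Gjb2 at 1.1, Fbp1 at 1.22, Krt87 at 1.25, Cryba4 at 1.33 and Psors1c2 at 1.34. Gm49425 had 0, 0.0888 and 0 FPKM in WT day 0, 19.2, 288 and 972 in Cthrc1-/- day 0, 91.8, 212 and 232 in WT day 7, and 179.9, 33.1 and 330.2 in Cthrc1-/- day 7. Prr9 had at most 0.335 FPKM in WT day 0 and 13.9 to 471 elsewhere. With a pseudocount of 0.1, 7 of these 10 genes were again among the nearest 10, and without the filter on low values all 10 were.

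Among the 9 genes themselves, Krt28 was closest to the median profile (0.229) and Krt74 farthest (1.96), which its low level sets in part through the pseudocount of 1. Krt25 and Krt71 were each other's nearest gene among all 14313, at a distance of 0.0826, although they are a type I and a type II gene on different chromosomes. Of the other 7, Krt27 was nearest to Krt73 (0.377) and Krt74 to Padi1 (0.207). Tchh was nearest to Krt35 (0.267), and Krt28 and Krt73 were both nearest to Gm49425 (0.326 and 0.293). Krt72 was nearest to S100a3 (0.311) and Krt26 to Crym (0.337). These distances describe 12 libraries and carry no test.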

How the data were processed

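Poly(A) RNA of mouse dermis was sequenced as strand-specific paired-end libraries, 3 per group of genotype and day, per the labels' protocols. The authors deposited 1 table of 55401 genes with a whole-number count and an FPKM per gene and library. FPKM is per length and library size as the authors deposited it. The submitters' processing notes name cutadapt 1.9, HISAT2 2.0.4, UMI-tools, StringTie 1.3.4d, DESeq2, edgeR and the GRCm38 build, without roles. The deposited counts had 3.16 to 4.045 times as many genes at 4 as the mean of those at 3 and 5, so a low count is not 1 fragment, and counts divided by 4 were tried. The unused value columns numbered 0, and 0% of rows lacked a mouse gene ID. At 11 places an FPKM of 0.0001 stood beside a count and was taken as listed. Symbols and positions came from GENCODE M21 by gene ID (55141 matched), promoters from RefSeq (GRCm38.p6).

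Counts were tested with edgeR 4.0.16 (quasi-likelihood, two-sided, TMM) in R 4.3.3, in 1 fit of 12 libraries with a mean per group, over the 14313 genes whose mean FPKM reached 1. Benjamini-Hochberg adjustment covered all of them, and a gene passed at an adjusted p under 0.05. The fits were tested on simulated data for the day 7 comparison of genotypes alone. These data were drawn with edgeR's own estimates of spread, the same in all groups. There false calls stayed under the nominal share with edgeR and limma but were well above it with DESeq2. DESeq2 counts may thus hold more false calls. Such data may favour edgeR and do not rank the tools for the other comparisons. Alternatives were DESeq2 1.42.0, limma 3.58.1 on log2(FPKM + 1), total-count scaling, no filter, only the groups compared, a replicate block, counts divided by 4, and each library left out. FPKM is the scale of every level, and fold changes from counts are log2 changes.

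The members and lists were chosen with earlier results of these data known. Named genes were the 9 members, Cthrc1, the 3 of highest mean FPKM in each list, partner genes passing in a comparison that did not choose the members, and the 10 genes of nearest pattern. Others are said to be named after their values were seen. Protein identity was planned but protein sequences were not used here, so coding-sequence identity stands in its place. The limit of 12 counts, set after the counts were seen, covers counting error only. The intervals came from the edgeR fit and include the spread between replicate libraries as well.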

Additional observations from a re-analysis of the deposited data

How the results depend on the processing

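Between genotypes on day 7 and between days in Cthrc1-/-, 0 of the 9 genes passed under every alternative run and without each of the 12 libraries in turn. Their signs were not stable. Between genotypes on day 7 they turned with total-count scaling for Krt25 (0.0098) and Krt71 (0.0484) and with limma for Krt27 (-0.414). Leaving out 1 library gave -0.677 to 0.455 for Krt25, -0.92 to 0.382 for Krt26, -0.568 to 0.564 for Krt27, -0.702 to 0.328 for Krt28, -0.57 to 0.493 for Krt71, -0.867 to 0.712 for Krt72, -0.636 to 0.345 for Krt73, -0.735 to 0.472 for Krt74 and -0.488 to 0.459 for Tchh. Between days in Cthrc1-/- limma gave 0.00303 for Krt26, and leaving out 1 library gave -1.56 to 0.151 for Krt25, -0.965 to 0.125 for Krt26, -1.39 to 0.196 for Krt27, -1.49 to 0.164 for Krt28, -1.44 to 0.245 for Krt71 and -1.25 to 0.211 for Krt73.

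The number of the 9 genes that passed on day 0 was 0 with only the groups compared and 0 to 9 over the left-out libraries. Between days in WT it was 5 to 9, the lowest without a WT day 0 library. For the interaction it was 9 with DESeq2 and 0 to 8 over the left-out libraries, with 8 without Cthrc1-/- day 0 replicate 1. Of the 20 partner genes, day 0 gave 13 with DESeq2, 1 with limma, 4 with no filter, 0 with only the groups compared and 0 to 13 over the left-out libraries. Between days in WT it was 5 with limma, 6 with no filter and 1 to 10 over the left-out libraries. Between days in Cthrc1-/- it was 1 with total-count scaling, DESeq2 or limma and 0 to 1 over the left-out libraries. The interaction gave 8 with DESeq2 and 0 to 5 over the left-out libraries. Why the calls moved between settings was not tested. The type I to type II ratio had a median of 0.957 on deposited counts, which are not per length, and 1.139 on FPKM, which is.

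Over all genes, day 0 gave 827 calls, 2787 with DESeq2, 275 with no filter and 19 with only the groups compared. Day 7 gave 3 calls, 62 with DESeq2 and 8 with limma. WT days gave 1880, and 3551 with DESeq2. Cthrc1-/- days gave 209, 747 with total-count scaling, 1409 with DESeq2, 775 with limma and 89 with only the groups compared. The interaction gave 2, 681 with DESeq2, 4 with limma, and 1 with total-count scaling or no filter. With 1 library left out, all-gene calls were 18 to 2146 on day 0, 0 to 4 on day 7, 527 to 3005 between days in WT, 5 to 911 between days in Cthrc1-/- and 0 to 242 for the interaction. Total-count scaling moved the split of higher and lower calls from 503 and 324 to 523 and 209 on day 0, from 864 and 1016 to 1669 and 543 between days in WT, and from 123 and 86 to 649 and 98 between days in Cthrc1-/-. It set the median log2 change of all genes at 0.1955 and 0.1577 between days, small beside the changes of the 9 genes in WT.

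Same-numbered libraries did not deviate together (correlations -0.232 to 0.426 over the 4 comparisons), so the numbers were not taken to pair the samples. With the replicate block 8 of the 9 genes passed on day 0 and between days in WT, and 0 in the other 3 comparisons. Between days in Cthrc1-/- 1 partner gene passed with the block, and 1 gene of all for the interaction. With the block the log2 change between genotypes on day 7 was 0.163 for Krt25, 0.6 for Krt26, 0.1 for Krt71, 0.734 for Krt72, 0.115 for Krt73, 0.159 for Krt74 and 0.0571 for Tchh, and between days in Cthrc1-/- 0.797 for Krt26 and 0.191 for Krt72, all with the sign turned. Depth limits the WT day 0 values most, where the keratins had between 0 and 198 counts.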
